A study of Mus musculus with 6 samples.

Results

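Ion channel transcripts were measured in quadriceps muscle, a mainly fast thigh muscle of the mouse, with Affymetrix arrays. The members are the probe sets assigned to a single gene whose symbol marks it as a potassium channel (Kcn), sodium channel (Scn), CLC family (Clcn) or voltage-gated calcium channel (Cacna, Cacnb, Cacng) gene, with a mean signal over the 6 arrays above 37.8. Kcnj8 and Cacna1s were left out by this rule. It gave 117 of the 45101 probe sets on the array, for 68 genes of the 12529 that were tested. Before the limit on signal there were 268 such probe sets for 124 genes, so that 151 probe sets, and 56 genes altogether, were too dim to be members. Among the members nearest to the limit, Cacna1h had a mean signal of 37.8 and Kcnv2 of 38.0, and just under it Kcnj16 had 37.1 and a dim probe set of Cacna1d 36.4. Not every member is a voltage-gated channel: the symbols also take in inward rectifiers, two-pore channels, accessory subunits, CLC exchangers of internal membranes, and Kcnq1ot1, a non-coding RNA that carries no channel.

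The 3 transgenic animals carried the nuclear receptor ERRγ under a skeletal actin promoter (hSkeletal Actin -ERRg in the labels), which is active in muscle fibres, and the 3 wild-type animals carried no such transgene. All were male C57/BL6 mice, 8 weeks old, with 1 array per biological replicate. The comparison asks how transcript levels in muscle differ when this receptor, encoded by Esrrg, is present at a high level. The brightest Esrrg probe set gave 12697 to 14427 in transgenic and 24.1 to 71.6 in wild-type muscle. Another gave 101.6 to 174.3 in transgenic and 84.1 to 117.7 in wild-type muscle. The dimmest gave 49.7 to 58.4 and 36.9 to 40.1, and neither of these dimmer ones passed the test described below.

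Excitable membranes work by opposing currents. In a muscle fibre, voltage-gated sodium channels carry the action potential along the surface and into the transverse tubules, potassium channels and the chloride channel ClC-1 return and hold the membrane potential, and the L-type calcium channel acts in the tubules as the voltage sensor that opens the calcium release channel of the sarcoplasmic reticulum. Each pore-forming subunit works with accessory subunits that set its gating, its abundance at the membrane or its place in the cell.

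Signals are MAS5 values on a linear scale, with the same trimmed mean of 200 on every array. Differences are transgenic minus wild-type on the log2(signal + 16) scale, which understates the change of dim probe sets, and a gene is called when its limma p, adjusted by Benjamini-Hochberg over all 26995 tested probe sets, is under 0.05. Each gene is represented by its brightest probe set. The median signal per array ran from 57.1 to 61.9 in transgenic and from 52.1 to 56.3 in wild-type muscle. The muscle fibre markers Acta1, Ckm, Ttn, Des, Myh4, Actn3 and Mb were bright on every array, with summed signals of 114168 to 127729 in transgenic and 96037 to 121025 in wild-type muscle. Of these 7 markers, 1 was called higher and 0 lower, beside 7.65% and 5.75% of all tested genes. An unadjusted limma p under 0.05 was found for 2 of the 7. Detection calls were not analysed here, and the number of arrays limits the precision.

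Among the channel genes, 6 rose and 5 fell in transgenic muscle, and 57 did not pass the test. The risers were Clcn3, Kcna5, Kcne4, Kcnc1, Scn4b and Kcna7, and those that fell were Kcnf1, Cacng6, Cacng1, Kcng4 and Cacnb1. These shares, 8.82% and 7.35% of 68 genes, stand beside 7.65% of all tested genes called higher and 5.75% called lower, and so are near the background. Over probe sets, 10 were called higher and 7 lower among the 117, or 8.55% and 5.98%, against 6.38% and 5.16% of all tested probe sets. Among the called channel probe sets 58.8% were higher. After common median scaling of the arrays this share was 42.1%, with 8 higher and 11 lower, and after quantile normalization it was 47.4%. Over all tested probe sets the share called higher was 55.2%, against 28.9% after common median scaling, with 977 higher and 2399 lower, and 51.3% after quantile normalization. The median log2 difference over the channel genes was 0.14, and over all tested genes it was 0.03. That scaling moved both medians, to 0.0021 for channel genes and -0.11 for all genes. The genotypes' signal ranges did not overlap for 10 channel genes with higher and 8 with lower transgenic signal, or 14.7% and 11.8%, against 18.6% and 14.7% of all tested genes.

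**Figure D1:**
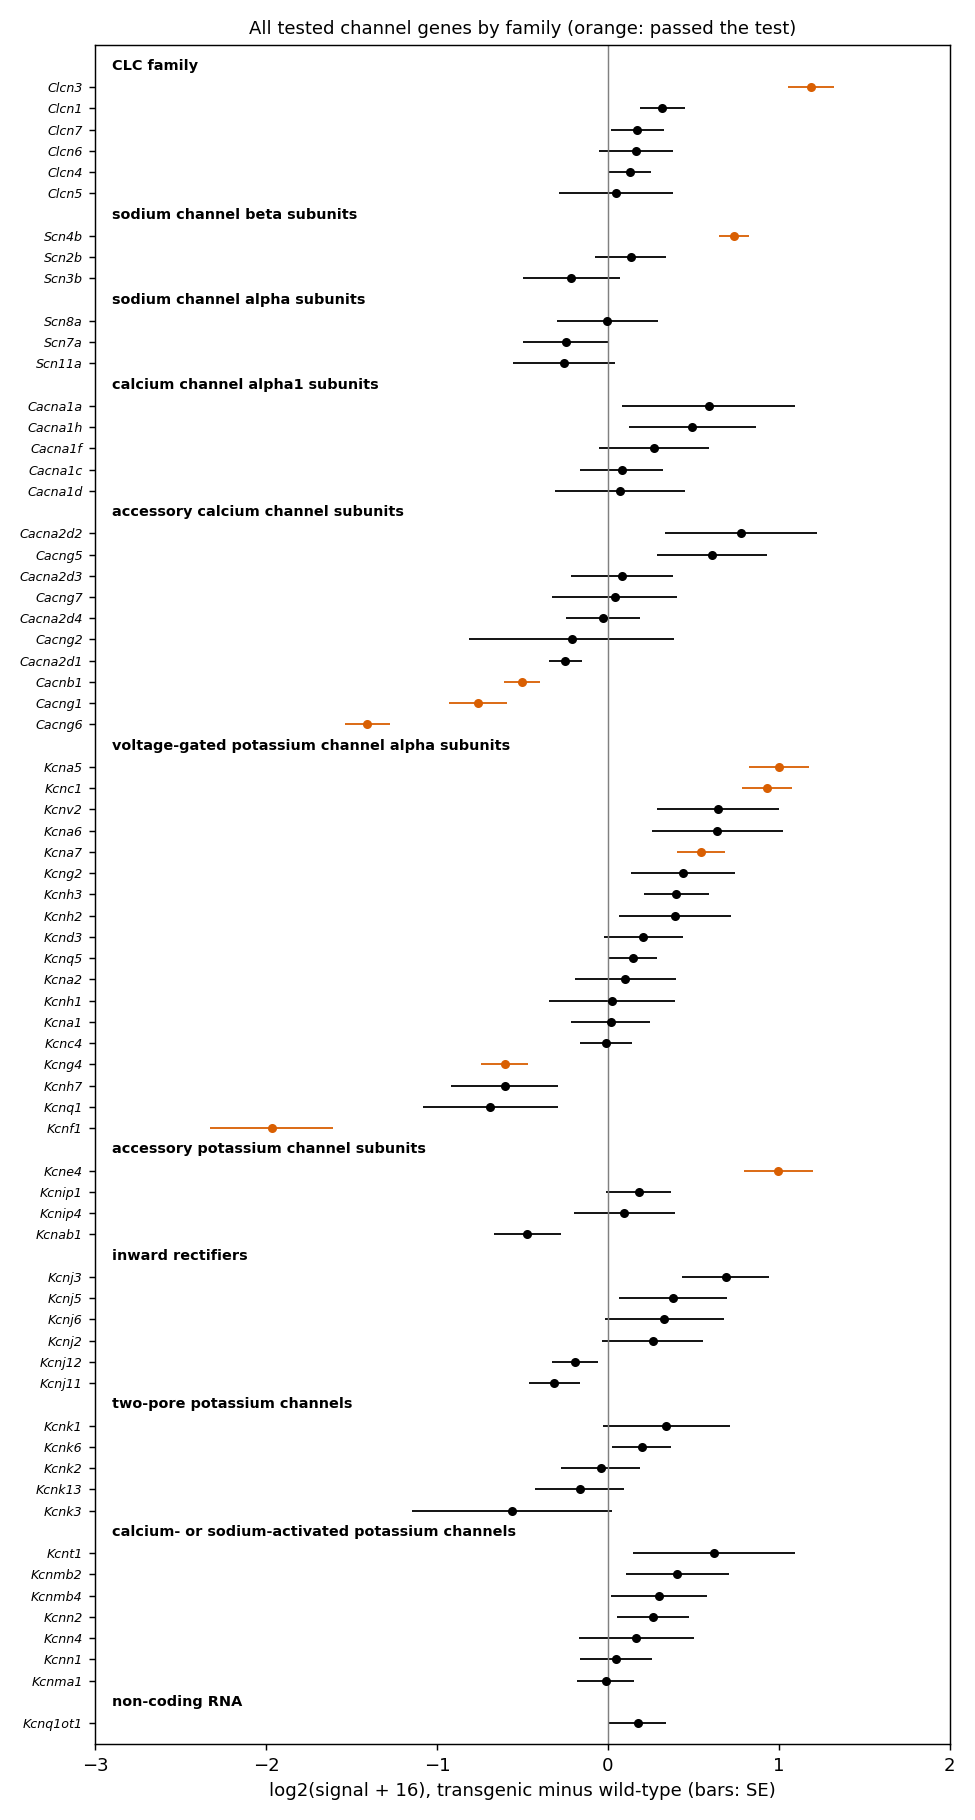
Log2 difference in signal (transgenic minus wild-type, x axis) of the brightest probe set of each of the 68 channel genes, grouped by family, with bars for the SE of the limma fit and orange for genes that passed the test. The 11 called genes spread over 5 families, with Kcnf1 farthest below 0 and Clcn3 farthest above it.

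Most members were dim, and calls were few among them. Of the 40 channel genes with a mean signal under 100, a division chosen after the values were seen, 2 were called (5.0%), and the same share over all genes this dim was 3.27%. Of the 28 channel genes at or above 100, 9 were called (32.1%), against 17.7% of all such genes. The median SE was 0.25 for channel genes and 0.17 for all tested genes. Because the rule keeps a probe set by its mean over all arrays, 5 genes passed it with a transgenic mean and 8 with a wild-type mean at or below the limit. Kcnf1 had a transgenic mean under the limit, so that its wild-type signal kept it in.

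The promoters of 4 called genes are shown. Clcn3 and Scn4b stand for the rises of a CLC exchanger and a sodium channel β subunit gene. Cacng6 stands for the fall of a calcium channel γ subunit gene. Kcnf1, which fell, is shown as the one called gene in the table whose promoter holds the ERR half-site core. Another annotated Clcn3 promoter and those of the risers Kcna5, Kcne4, Kcnc1 and Kcna7 are not printed, nor are those of Kcng4 and Cacnb1, which fell. The sequences are from RefSeq (GRCm38.p6), run from 250 bases before to 50 bases after the annotated start, and are written in lower case with AAGGTCA, the core of the half-site that ERR receptors bind, and CANNTG, the E-box bound by myogenic factors, in capitals on either strand:
Clcn3, chr8:60983262-60983561, minus strand: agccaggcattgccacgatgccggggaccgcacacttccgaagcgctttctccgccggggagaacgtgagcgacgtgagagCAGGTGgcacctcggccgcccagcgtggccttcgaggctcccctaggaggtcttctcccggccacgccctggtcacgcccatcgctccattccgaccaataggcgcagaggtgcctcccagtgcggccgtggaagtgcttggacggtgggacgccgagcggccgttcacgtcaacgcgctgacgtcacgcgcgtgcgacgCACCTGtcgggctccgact
Scn4b, chr9:45138374-45138673, plus strand: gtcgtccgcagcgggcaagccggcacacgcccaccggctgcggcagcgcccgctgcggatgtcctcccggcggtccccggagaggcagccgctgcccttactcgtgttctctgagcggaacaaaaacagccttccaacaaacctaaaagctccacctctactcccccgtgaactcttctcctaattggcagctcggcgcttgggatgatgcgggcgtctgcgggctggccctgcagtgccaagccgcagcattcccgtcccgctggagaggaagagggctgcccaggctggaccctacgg
Cacng6, chr7:3424412-3424711, plus strand: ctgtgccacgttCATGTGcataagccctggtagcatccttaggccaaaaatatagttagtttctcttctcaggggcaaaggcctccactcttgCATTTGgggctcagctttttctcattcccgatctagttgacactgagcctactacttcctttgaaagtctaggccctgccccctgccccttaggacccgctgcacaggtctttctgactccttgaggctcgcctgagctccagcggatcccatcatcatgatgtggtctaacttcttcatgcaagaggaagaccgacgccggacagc
Kcnf1, chr12:17176839-17177138, minus strand: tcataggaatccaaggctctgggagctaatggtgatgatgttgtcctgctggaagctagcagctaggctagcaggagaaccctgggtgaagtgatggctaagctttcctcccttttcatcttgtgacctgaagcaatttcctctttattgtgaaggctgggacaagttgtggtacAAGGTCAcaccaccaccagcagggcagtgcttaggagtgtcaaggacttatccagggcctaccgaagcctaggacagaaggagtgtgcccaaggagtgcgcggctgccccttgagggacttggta

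The table held 74 promoters for 53 of the 68 channel genes, and 10 of the 11 called genes were among them. AAGGTCA stood in 4 of these promoters (5.41%), those of Cacna1f, Kcnf1, Kcnh1 and Scn8a, and in 4.72% of all 32851 promoters of this length. In Kcnf1 it begins 75 bases before the start. CANNTG stood in 75.7% of the channel promoters and in 72.3% of all of them, with 2 copies each in the Clcn3 and Cacng6 windows shown and none in those of Scn4b and Kcnf1. The 2 motifs do not overlap in the printed windows. The windows printed are 300 bases long and say nothing of sites elsewhere in these genes.

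The CLC family was led by Clcn3, which encodes a chloride-proton exchanger of endosomes and other internal vesicles. Its brightest probe set gave 1926.5, 1399.2 and 1507.6 in transgenic muscle, against 636.8, 685.4 and 756.0 in wild-type muscle. Every transgenic array lay above every wild-type array, and the means of 1611 ± 278 and 693 ± 59.9 (SD, n = 3 each) differed 2.33-fold. The log2 difference was 1.19 (SE 0.13, limma adjusted p = 0.000404). This probe set carries the suffix x, which marks probes that may bind other transcripts, but the other 4 Clcn3 probe sets rose too, by 1.07, 0.91, 0.77 and 0.74, with adjusted p from 0.000339 to 0.0377.

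The other 5 CLC genes did not pass. Clcn1, which encodes the chloride channel that sets the resting chloride conductance of muscle fibres, gave 1135.0, 1096.5 and 1049.8 in transgenic and 957.8, 973.4 and 716.6 in wild-type muscle. The groups did not overlap, but the log2 difference of 0.32 (SE 0.13, limma adjusted p = 0.157) missed the threshold. Clcn7, the lysosomal exchanger, gave 184.9, 212.2 and 242.3 in transgenic against 174.9, 212.4 and 174.2 in wild-type muscle at its brightest probe set, and these overlap. A second Clcn7 probe set gave 137.9, 187.3 and 173.6 in transgenic and 119.8, 104.1 and 133.8 in wild-type muscle, which are apart, and its log2 difference of 0.43 (SE 0.17, limma adjusted p = 0.146) missed the threshold. The third overlapped and differed by 0.28 (SE 0.31). Ostm1, the β subunit that ClC-7 needs for stability in lysosomes, rose. Ostm1 gave 1162.0, 1187.5 and 1055.9 in transgenic, against 556.1, 556.1 and 585.4 in wild-type muscle, a log2 difference of 0.98 (SE 0.10, limma adjusted p = 0.000266). Clcn4, a relative of Clcn3, had differences of 0.13 and 0.16 at its 2 probe sets, and Clcn6 of 0.17 at both. The 4 probe sets of Clcn5 ran from -0.67 to 0.80, all short of the threshold.

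Among sodium channel genes, Scn4b rose. It encodes the β4 subunit, an accessory protein with an immunoglobulin-like domain that speeds the recovery of sodium current. Its signals were 5392.6, 5832.5 and 5538.3 in transgenic muscle, against 3278.3, 3461.8 and 3275.9 in wild-type muscle. The ranges are narrow and far apart, with means of 5588 ± 224 and 3339 ± 107 (SD, n = 3 each), and the log2 difference was 0.74 (SE 0.09, limma adjusted p = 0.00052). Scn2b, another β subunit gene and the next coding gene to Scn4b on chromosome 9, gave 111.1, 111.7 and 77.1 in transgenic and 107.5, 76.9 and 84.0 in wild-type muscle at its brightest probe set. Its groups overlap, and its log2 difference was 0.13 (SE 0.21, adjusted p = 0.737). Scn3b differed by -0.21, and of the 3 α subunit genes tested, Scn7a, Scn8a and Scn11a, 0 passed with limma and 0 had an unadjusted p under 0.05.

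**Figure D2:**
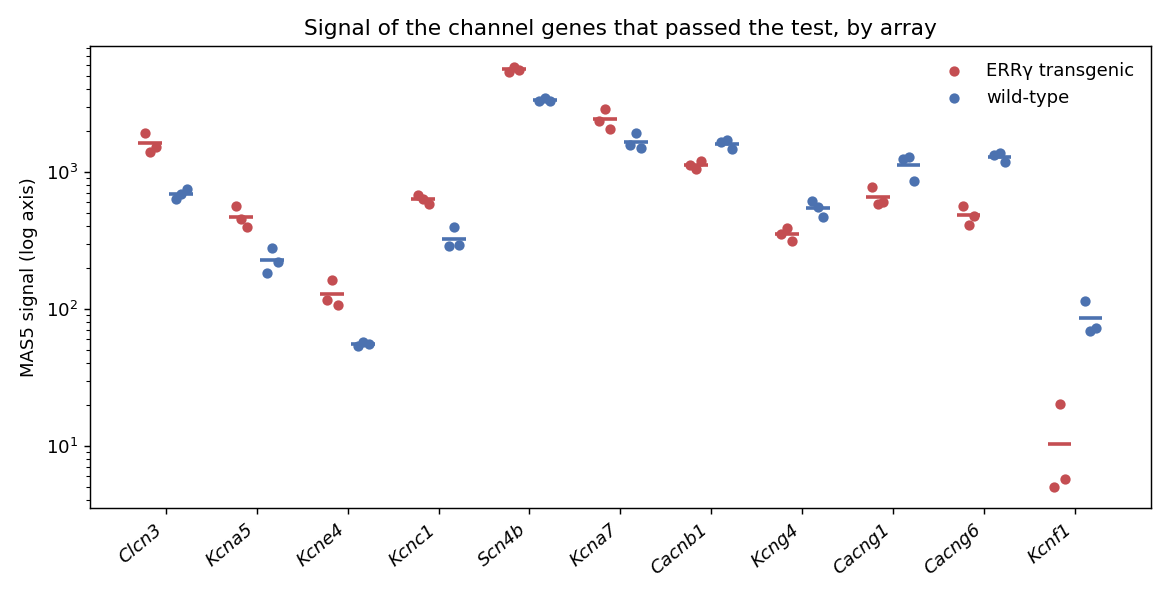
MAS5 signal (log axis) on each array for the 11 channel genes that passed the test, ordered by log2 difference, with ERRγ transgenic arrays in red to the left and wild-type arrays in blue to the right, and a line at each mean of 3. The ranges of the genotypes do not overlap for any of these genes, and the transgenic signals of Kcnf1, at 5.0 to 20.1, are near the added 16 units.

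Voltage-gated potassium channel α subunits went both ways, with 3 of 18 tested genes higher, 2 lower and 13 not called, against 7.65% of all tested genes called higher and 5.75% lower. Kcna5 encodes Kv1.5, a delayed rectifier of heart, vascular smooth muscle and skeletal muscle. It gave 560.6, 451.1 and 395.4 in transgenic and 182.4, 276.8 and 221.5 in wild-type muscle. The lowest transgenic array was above the highest wild-type array, and the log2 difference was 1.002 (SE 0.18, limma adjusted p = 0.0047). Kcna5 lies beside Kcna1 and near Kcna6 on chromosome 6, and neither of these passed. Kcna1 differed by 0.02 (SE 0.23, adjusted p = 0.976) and Kcna6 by 0.64 (SE 0.38, adjusted p = 0.33) at their brightest probe sets.

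Kcnc1 encodes Kv3.1, a fast channel that lets nerve cells fire at high rates. Its brightest probe set gave 679.1, 638.2 and 578.4 in transgenic and 288.2, 396.7 and 293.8 in wild-type muscle, ranges that are well apart. The log2 difference was 0.93 (SE 0.15, limma adjusted p = 0.00239). The next probe set differed by 0.58 (adjusted p = 0.0762) and the dimmest by 0.42 (adjusted p = 0.189), so that 1 of 3 probe sets passed and all had the same sign. Kcnc4, a gene of the same subfamily that is found in muscle, gave 500.0, 362.2 and 516.9 in transgenic and 465.2, 415.1 and 499.9 in wild-type muscle, with an overlap of the groups and a log2 difference of -0.01 (SE 0.15) at its brightest probe set. Its other probe set gave 325.9, 342.8 and 288.9 in transgenic and 253.9, 240.1 and 272.9 in wild-type muscle. Those ranges are apart, but the log2 difference of 0.30 (SE 0.13, limma adjusted p = 0.175) missed the threshold.

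Kcna7, which encodes Kv1.7, a channel abundant in skeletal muscle and heart, gave 2347.1, 2858.5 and 2069.0 in transgenic and 1567.6, 1910.2 and 1484.6 in wild-type muscle. The gap between the groups was small against their spread, and the log2 difference was 0.54 (SE 0.14, limma adjusted p = 0.0299). This call was lost after common median scaling (adjusted p = 0.105), without the intensity trend of the variance model (0.115), without the limit on signal (0.0567), and with transgenic 1, transgenic 2, wild-type 1 or wild-type 3 left out (adjusted p = 0.0845, 0.0968, 0.107 and 0.0616).

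The α subunit genes that fell, Kcnf1 and Kcng4, encode Kv5.1 and Kv6.4, so-called silent subunits that form no channel alone and change the gating of Kv2 channels. Kcnf1 gave 5.0, 20.1 and 5.7 in transgenic and 114.7, 69.0 and 72.6 in wild-type muscle. The groups did not overlap, and the log2 difference was -1.97 (SE 0.36, limma adjusted p = 0.00583). All transgenic signals were near or under the added 16 units, so that the size of the difference depends on that constant: it was -3.15 with 1 added and -1.002 with 64 added, and in the last case Cacng6 differed more (-1.32). Kcnf1 did not pass without wild-type 1 (adjusted p = 0.0577). Only its wild-type signal kept it above the limit on signal, as its transgenic mean was 10.3. With the limit set at the 60th percentile it was not tested. Kcng4 gave 350.7, 392.5 and 313.8 in transgenic and 608.9, 556.4 and 469.2 in wild-type muscle. Its ranges are apart and the log2 difference was -0.60 (SE 0.14, adjusted p = 0.0185). Its adjusted p was 0.0630 without transgenic 1, 0.0639 without transgenic 3, 0.0906 without wild-type 1 and 0.0697 without wild-type 2. Leaving out the intensity trend gave 0.0701. Kcnv2, another silent subunit gene, ranged between 38.7 and 58.6 in transgenic and between 11.6 and 37.1 in wild-type muscle and did not pass (log2 difference 0.64, SE 0.36).

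Of 4 accessory potassium channel genes, Kcne4 rose and 3 did not pass, against 7.65% of all tested genes called higher and 5.75% lower. Kcne4 encodes a single-span subunit that damps several Kv1 channels. Its signals were 116.9, 162.7 and 106.8 in transgenic muscle against a tight 53.6, 57.7 and 55.4 in wild-type muscle, and the log2 difference was 0.998 (SE 0.20, limma adjusted p = 0.0106). Kcnab1, which encodes a cytoplasmic β subunit of Kv1 channels, gave 87.3, 63.2 and 98.6 in transgenic and 115.3, 135.3 and 110.0 in wild-type muscle. Its groups did not overlap, but its log2 difference of -0.47 (SE 0.20) had an adjusted p of 0.162. Kcnip1 and Kcnip4, which encode calcium-binding partners of Kv4 channels, differed by 0.18 and 0.10.

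Some markers of vessel cells rose, as did the 6 channel genes called higher and 7.65% of all tested genes. Of 6 endothelial markers, 5 rose, with summed signals of 3254 to 3592 in transgenic and 1789 to 1923 in wild-type muscle. Of 7 pericyte and smooth muscle markers, Kcnj8 and Rgs5 rose and 0 fell, with sums of 12088 to 13841 in transgenic and 7576 to 9097 in wild-type muscle. None of these markers was at 0, and their part in the rises of channel genes was not tested. In whole muscle, more cells of a type and more RNA per cell cannot be told apart. Of the tested Schwann cell (4 of 7 listed), satellite cell (4), and macrophage and leukocyte markers (5), limma called 0, and unadjusted p values under 0.05 numbered 0, 2 and 0. Summed Schwann cell marker signals were 1520 to 1941 in transgenic and 1482 to 1646 in wild-type muscle. Satellite cell markers summed to 323 to 349.8 in transgenic and 424.5 to 469 in wild-type muscle, and macrophage and leukocyte markers to 1168 to 1553 in transgenic and 1445 to 1723 in wild-type muscle.

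Of the accessory subunits of voltage-gated calcium channels, Cacng6, Cacng1 and Cacnb1 passed the test. That is, 3 of the 10 tested genes were lower in transgenic muscle, 0 were higher with limma, and 7 missed the threshold. The unadjusted p was under 0.05 for 4 of the 10. Over all tested genes 5.75% were called lower and 7.65% higher, and the calls of Cacng1 and Cacnb1 were lost in several settings, given beside each gene. Cacng6 encodes a γ subunit, a four-span membrane protein that is found in skeletal muscle. Its brightest probe set gave 560.4, 407.9 and 473.4 in transgenic muscle, against 1322.9, 1377.8 and 1179.8 in wild-type muscle. Wild-type means were 2.69-fold higher, with no overlap, and the log2 difference was -1.41 (SE 0.13, limma adjusted p = 0.000129). The dimmer Cacng6 probe set fell by 0.87 (adjusted p = 0.0113). Cacng7, a neighbour of Cacng6 on chromosome 7, differed by 0.04 (SE 0.37) and overlapped.

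Cacng1 encodes γ1, the γ subunit of the muscle L-type channel. Its signals were 770.6, 582.0 and 606.1 in transgenic and 1232.1, 1289.9 and 856.7 in wild-type muscle, with the lowest wild-type array close to the highest transgenic one. The log2 difference was -0.76 (SE 0.17, limma adjusted p = 0.0153). It did not pass without transgenic 2, transgenic 3, wild-type 1 or wild-type 2, with adjusted p of 0.0610, 0.0561, 0.0715 and 0.0662, nor without the intensity trend (0.0758).

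Cacnb1 encodes the cytoplasmic β1 subunit, which brings the channel to the tubule membrane and is needed for coupling. Its brightest probe set gave 1117.2, 1052.9 and 1201.4 in transgenic and 1642.9, 1702.5 and 1460.1 in wild-type muscle, without overlap. The log2 difference was -0.50 (SE 0.11, limma adjusted p = 0.0123). The probe sets of this gene disagree: another, dimmer one gave 336.8, 295.2 and 326.7 in transgenic and 266.5, 168.4 and 232.0 in wild-type muscle, a log2 difference of 0.51 (SE 0.17) in the opposite direction that did not pass (adjusted p = 0.0777). The mean over its 4 probe sets differed by -0.03 (adjusted p = 0.909). The call of the brightest was also lost without transgenic 1, wild-type 1 or wild-type 2 (adjusted p = 0.0503, 0.0592 and 0.0629), and without the intensity trend (0.0733). Which transcripts of the gene each probe set reads was not analysed here.

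Cacna2d1 encodes α2δ1, the extracellular subunit of the same channel. Its brightest probe set gave 5173.1, 4628.7 and 4860.6 in transgenic and 6114.8, 6067.5 and 5287.8 in wild-type muscle, just apart, and did not pass (log2 difference -0.25, SE 0.10, adjusted p = 0.129). All 5 of its probe sets had negative differences, from -0.55 to -0.15, and 1 of them passed (738 ± 105 in transgenic and 1089.5 ± 148 in wild-type muscle, SD, n = 3 each, adjusted p = 0.0284). The probe set that passed carries the suffix x, which marks probes that may bind other transcripts. It is also part of the mean of the 5 given next. The brightest probe set passed after common median scaling (adjusted p = 0.0256), after quantile normalization (0.0431) and without wild-type 3 (0.0448), and the mean of the 5 passed as well (-0.33, adjusted p = 0.0408).

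**Figure D3:**
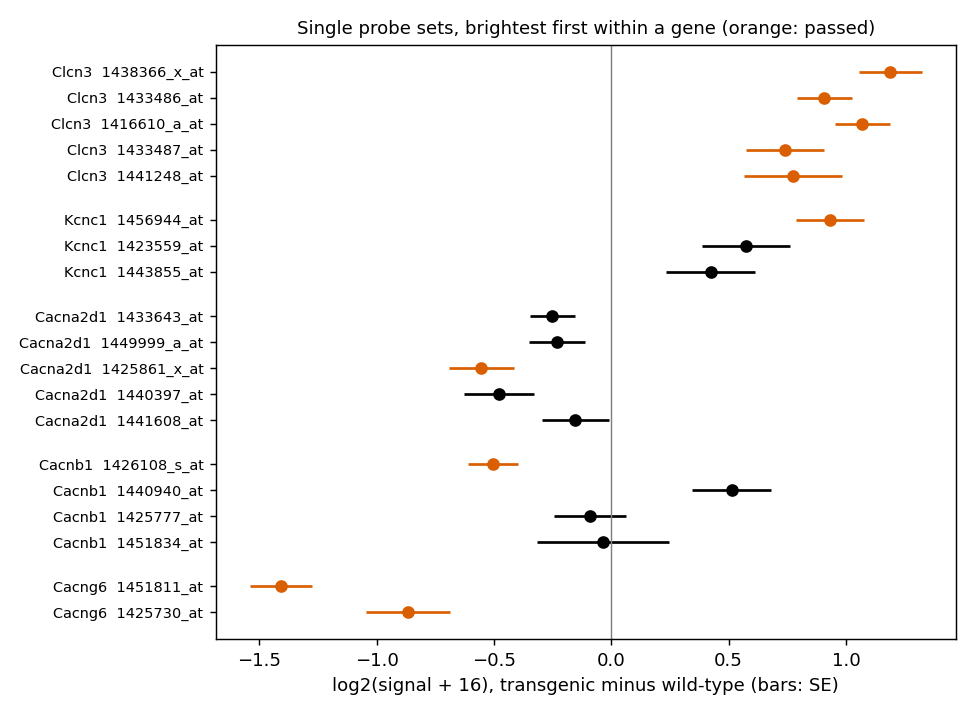
Log2 difference (x axis, transgenic minus wild-type, bars for SE) of each probe set of the 5 genes in which several probe sets bear on the call, brightest first, orange where the probe set passed. All 5 of Clcn3 and both of Cacng6 passed with the same sign, while 1 of 3 for Kcnc1, 1 of 5 for Cacna2d1 and 1 of 4 for Cacnb1 passed, and Cacnb1 has probe sets on both sides of 0.

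Of the 25 channel genes with several member probe sets, only Clcn3 and Cacng6 had more than 1 called, each in a single direction. In the others calls in both directions could not occur. Several, such as Cacnb1, Clcn5 and Kcnma1, had probe sets with differences of both signs. The pore-forming calcium channel genes among the members, Cacna1a, Cacna1c, Cacna1d, Cacna1f and Cacna1h, were dim, with means between 29.5 and 70.5, and limma called 0 of 5, also at an unadjusted p under 0.05. Cacna1s, which encodes the pore of the muscle L-type channel and is not a member, was chosen after its values were seen. It gave 3464.7, 3827.4 and 3304.5 in transgenic and 3448.0, 3288.2 and 2932.9 in wild-type muscle, and its log2 difference was 0.13 (SE 0.10, limma adjusted p = 0.461).

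Of 21 genes of excitation-contraction coupling, all tested, 1 was higher in transgenic muscle and 3 were lower. The other 17 missed the threshold, and the list had a median of -0.04 on the log2 scale. Over all tested genes, 7.65% were called higher and 5.75% lower. Casq2, the calsequestrin of slow and cardiac muscle, rose by 2.10 (SE 0.16), with 779.8, 792.3 and 973.9 in transgenic and 205.3, 208.8 and 145.0 in wild-type muscle. Jph2, a junctophilin that ties the tubule to the sarcoplasmic reticulum, fell by 1.18 (SE 0.12, limma adjusted p = 0.000191), with 1741.8, 1936.7 and 1658.8 in transgenic and 4348.5, 4383.2 and 3433.1 in wild-type muscle. Its relative Jph1, chosen after its values were seen, fell by 1.13 (SE 0.14, adjusted p = 0.000737). The third gene that fell was Bin1, which shapes the tubule (-0.57, SE 0.14, adjusted p = 0.0272), also chosen after its values were seen. The count of called genes in this list was 7 without wild-type 3 and 8 after common median scaling.

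**Figure D4:**
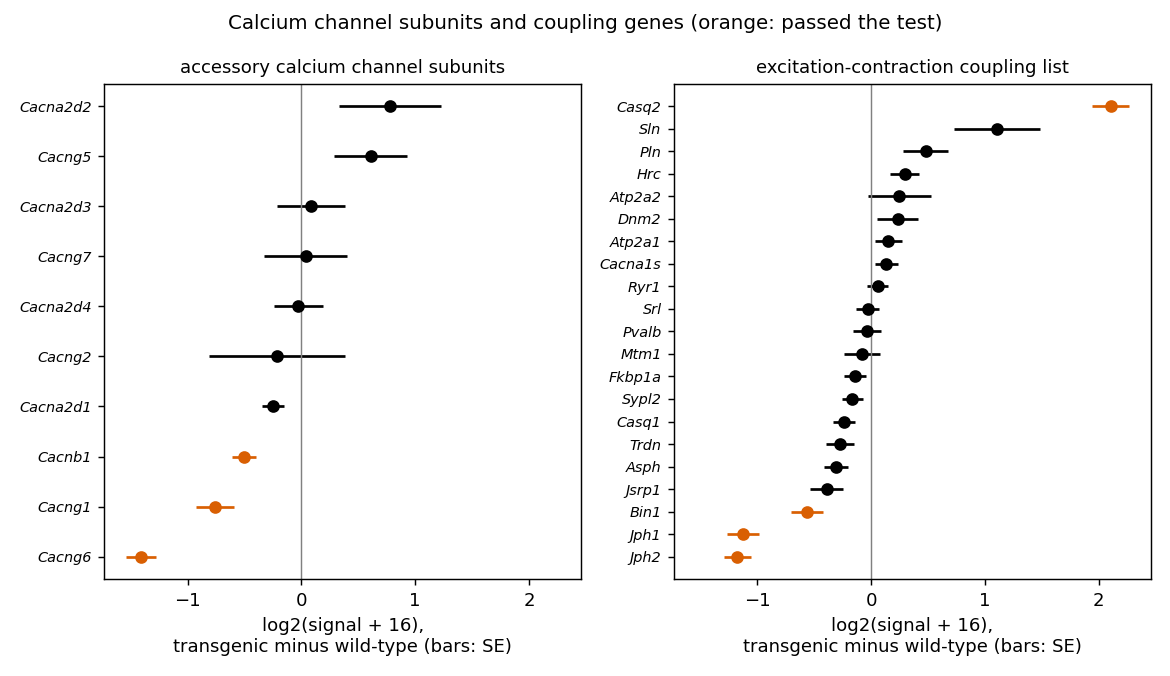
Log2 difference (x axis, transgenic minus wild-type, bars for SE) of the 10 accessory calcium channel subunit genes (left) and of the 21 coupling genes (right), orange where the gene passed. Cacnb1, Cacng1 and Cacng6 on the left and Bin1, Jph1 and Jph2 on the right lie below 0, and Casq2 at 2.10 is the one called above it.

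The remaining potassium channels held 0 limma calls at their brightest probe sets, and 1 of these genes, Kcnj3, had an unadjusted p under 0.05. Among 6 inward rectifiers, Kcnj11, which encodes the pore of the ATP-sensitive channel that links membrane potential to energy state, gave 482.9, 622.3 and 498.2 in transgenic and 723.7, 733.2 and 550.5 in wild-type muscle. The groups overlap and the log2 difference was -0.31 (SE 0.15, limma adjusted p = 0.216). Its second probe set differed by -0.51 (adjusted p = 0.109). Abcc9, which encodes the regulatory subunit of that channel in muscle, was chosen after its values were seen and differed by -0.31 (SE 0.11, adjusted p = 0.101). Kcnj12 and Kcnj2, which encode the rectifiers Kir2.2 and Kir2.1 that hold the resting potential, differed by -0.19 (SE 0.14) and 0.26 (SE 0.30). Kcnj12 gave 348.7, 319.2 and 353.0 in transgenic and 371.0, 458.0 and 350.1 in wild-type muscle, and Kcnj2 had signals between 63.4 and 142.7 in transgenic muscle and none above 91.4 in wild-type muscle. Both overlap.

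Kcnj3, a G protein-gated rectifier of the heart, gave 137.4, 101.1 and 63.5 in transgenic and 51.9, 53.3 and 56.6 in wild-type muscle. The groups were apart, the spread in transgenic muscle was wide, and it passed only when transgenic 3 was left out, among the settings run. Kcnma1, the large-conductance calcium-activated channel, gave 303.6, 245.9 and 363.8 in transgenic and 339.3, 322.8 and 255.7 in wild-type muscle at its brightest probe set. Its 5 probe sets ran from -0.46 to 0.61, with 0 called. Kcnq5, a slow voltage-gated channel, gave 258.0, 263.4 and 206.9 in transgenic and 215.9, 218.2 and 215.8 in wild-type muscle (log2 difference 0.15, SE 0.14). The 7 calcium- or sodium-activated genes ran from -0.01 to 0.62 and the 5 two-pore genes from -0.56 to 0.34, and 0 of either family passed. Kcnn3, the apamin-sensitive channel that denervated muscle makes, was below the limit on signal, at 5.6 to 12.2 in transgenic and 4.5 to 7.5 in wild-type muscle. Kcne3 was below it too, at 20.3 to 26.7 in transgenic and 6.4 to 42.5 in wild-type muscle.

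At their brightest probe sets Kcnk3 and Scn7a, chosen after their values were seen, stood apart on wild-type 3. Kcnk3, a two-pore channel, gave 10.1, 34.5 and 45.7 in transgenic and 12.7, 39.7 and 148.0 in wild-type muscle. Scn7a, a sodium channel relative found in glia and other non-muscle cells, gave 179.9, 160.8 and 187.8 in transgenic and 169.8, 156.5 and 349.5 in wild-type muscle. On wild-type 3 the other Scn7a probe sets gave 196.1 and 58.5, close to their highest transgenic signals of 181.1 and 53.5. On the same array the 5 tested adipocyte markers of 7 listed summed to 26420, against 11501 and 13854 on the other wild-type arrays and 12706 to 17366 in transgenic muscle, and limma called 0 of 5, also at an unadjusted p under 0.05. A link between these values was not tested. Neither gene passed with all arrays (adjusted p = 0.598 and 0.597).

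Lists of related genes, chosen for what they do, give the surroundings of these changes. Their counts stand beside 7.65% of all tested genes called higher and 5.75% called lower, and no list was tested as a set. Of 35 channel partners and regulators listed, 23 were tested. Calls were 3 higher and 1 lower in transgenic muscle, 19 missed the threshold, and the list's median was -0.15 on the log2 scale. Besides Ostm1, Ank2, an ankyrin that anchors membrane proteins, rose by 0.86 (SE 0.20), with 786.5, 616.4 and 1042.0 in transgenic and 441.1, 522.5 and 349.9 in wild-type muscle. Of 39 other ion channel genes listed, 23 were tested as well, with 1 higher, 5 lower and 17 short of the threshold, and a list median of -0.10. Ano1, a calcium-activated chloride channel of smooth muscle and other cells, rose by 1.33 (SE 0.21), with 131.8, 217.1 and 207.5 in transgenic and 64.8, 53.9 and 70.2 in wild-type muscle. Piezo1, a stretch-activated channel, fell by 1.40 (SE 0.15), with 190.5, 174.9 and 181.9 in transgenic and 507.2, 616.8 and 419.5 in wild-type muscle. Orai1 and Stim2, the pore and a calcium sensor of store-operated entry, were chosen after their values were seen and fell by 0.67 (SE 0.13) and 0.68 (SE 0.12). Stim1, the other sensor, differed by -0.02 (SE 0.16) and did not pass.

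The shares of all tested genes called higher and lower, 7.65% and 5.75%, also stand beside the counts given here. Of 17 ion pumps and transporters listed, 13 were tested. Calls were 3 higher and 1 lower, 9 were short of the threshold, and the list median was -0.05. The named ones are both of the sodium-potassium ATPase β family. Atp1b4 gave 882.0, 601.5 and 1020.2 in transgenic and 40.2, 66.6 and 76.8 in wild-type muscle, and Atp1b2 gave 513.5, 426.1 and 494.5 in transgenic and 1894.6, 2097.2 and 1515.9 in wild-type muscle. Their log2 differences were 3.46 (SE 0.23) and -1.90 (SE 0.14). Of 7 tested genes that rise in denervated muscle, Chrna1, an acetylcholine receptor subunit (1.24, SE 0.15), and Gadd45a (0.76, SE 0.16) rose, Myh8 fell by 1.76 (SE 0.26), and 4 did not pass, while Chrng and Chrnd were below the limit on signal.

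Of the 11 called channel genes, Clcn3, Kcna5, Kcnc1, Kcne4, Scn4b and Cacng6 passed in each of the 17 alternatives run, 6 of which drop a single array. The other 5 lost their call in at least 1 of them. The adjusted p of the 6 with an array left out ran up to 0.0476, for Kcne4.

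**Figure D5:**
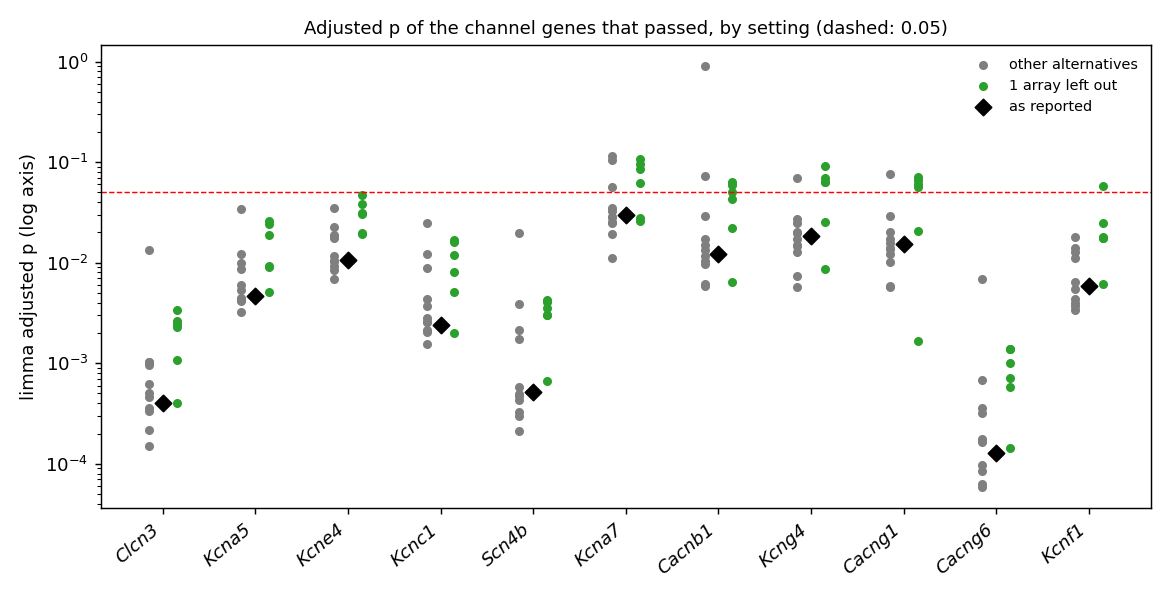
Limma adjusted p (log axis) of the 11 called channel genes as reported (black diamonds), with 1 array left out (green) and under the other alternatives (grey), with a dashed line at 0.05. All points of Clcn3, Kcna5, Kcne4, Kcnc1, Scn4b and Cacng6 lie under the line, and some points of Kcna7, Cacnb1, Kcng4, Cacng1 and Kcnf1 lie above it.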

How the data were processed

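Quadriceps RNA from 3 ERRγ transgenic and 3 wild-type mice was hybridised to 1 array each. The authors deposited linear MAS5 signals, 1 intensity per probe set and array, per the submitters' processing notes (no version or settings given). Genes were named from the platform's annotation (34945 probe sets with 1 gene, 932 with several, never named), and 113 of the 117 member probe sets matched NCBI's table (GRCm38.p6) by Entrez identifier. After 64 control probe sets, those with a mean signal above the 40th percentile (37.8) were tested: log2(signal + 16), limma 3.58.1 in R 4.3.3 (lmFit, eBayes with trend), two-sided, Benjamini-Hochberg over 26995 probe sets. The script was tested on simulated data. Plots were drawn with matplotlib 3.10.9.

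Named in full are the called channel genes, a list of muscle fibre channels and the 5 brightest, and the 2 largest called changes of each other list. The members and lists were chosen with earlier results of these data known. The labels call the animals biological replicates. Alternatives changed the added constant, the limit on signal, the scaling, the variance model (also with array weights or a replicate block), how probe sets stand for a gene, and which arrays were used.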

Additional observations from a re-analysis of the deposited data

How the results depend on the processing

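Of the 11 channel genes called, 10 or more remained called under array weights, common median scaling, quantile normalization, offsets of 1 and 64, both other filters, the replicate block, robust eBayes and the mean over probe sets. Without the intensity trend 7 did, and 2 channel genes and 2 channel probe sets were lower in place of 5 and 7. Over all tested probe sets that setting called 951 higher and 633 lower, in place of 1721 and 1394. Channel partners then had 2 calls in place of 4. Common median scaling gave 11 channel probe sets lower in transgenic muscle, beside 2399 of all tested probe sets. It also gave 8 called coupling genes in place of 4 and a channel median of 0.0021. The median of all genes was then -0.11 in place of 0.03. With 1 array left out, channel genes numbered 5 to 7 higher and 1 to 6 lower (1 without wild-type 1, 2 without wild-type 2), channel probe sets 7 to 11 higher and 2 to 9 lower, and the channel median was 0.07 to 0.20. Called genes then numbered 3 to 5 among partners, 5 to 6 among other channels, 3 to 7 in coupling and 3 to 4 among pumps. All tested probe sets then held 1028 to 1783 higher and 677 to 1518 lower calls. The cause of these changes was not tested, beyond the fewer arrays. Same-numbered arrays share a number only: the deviations from group means correlated at 0.07, -0.08 and -0.02, and 2 of 6 arrays correlated best with their own number. The replicate block gave 9 channel probe sets higher and 8 lower, with 6 and 5 genes. Signals near the added 16 units limit what can be seen for dim members.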

Other observations

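Among the 151 channel probe sets at or below the limit on signal, 1 was called when all probe sets were tested. It belongs to Kcnk5, a two-pore channel, which was chosen after its values were seen. Its signals were 2.5, 2.6 and 1.3 in transgenic muscle, against 16, 27.8 and 42.2 in wild-type muscle, a log2 difference of -1.26 (SE 0.27, limma adjusted p = 0.0274). A second Kcnk5 probe set, also below the limit, gave 51.3, 11.3 and 5.7 in transgenic and 6.2, 63.3 and 7.4 in wild-type muscle, and its groups overlap. The transgenic signals of the first lie under the added 16 units, and whether the transcript was detected was not analysed here.

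Transgenic 3 stood apart for Atp2a2, the slow calcium pump of the coupling list, with 1700.5 against 689.0 and 709.5 on the other transgenic arrays and 775.1 to 798.3 in wild-type muscle. Among the 11 called channel genes the same array was the lowest transgenic one for Kcna5, Kcne4, Kcnc1, Kcna7 and Kcng4. The genotypes' ranges do not overlap for any of the 11, so every transgenic array lay outside the wild-type range for each of them. Atp2a2 did not pass (log2 difference 0.25, SE 0.28).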
